A study of Mus musculus with 35 samples.

Results

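Livers of old mice taken 48 h after partial hepatectomy (PH, in which 70% of the liver mass is cut away) were compared with livers of old mice taken 38 h after PH. The arrays were chosen by their labels, 3 at each time, which makes 6 of the 35 arrays of the series, and no measured value entered the choice. Both groups were male CB6F1 hybrids of 25 to 27 months from the National Institute on Aging, anaesthetised with avertin and then isoflurane, and they differed in the time after surgery alone as far as the labels go. The groups used for reference were 2 old sham arrays at 38 h and 2 at 48 h (the same anaesthesia, the liver handled but not cut), 3 arrays of old untreated mice (0 h), 3 of old mice 24 h after PH, and 3 each of young mice 38 h and 48 h after PH. Young mice were male CB6F1 animals of 5 to 6 months from Jackson Laboratories, so age and supplier cannot be told apart. Each array held the RNA of 1 liver sample. Nothing in the labels ties each replicate to a mouse of its own, and the spread that the p-values rest on may therefore be technical.

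After PH the remaining hepatocytes leave quiescence, copy their DNA and divide, and in mice this happens in a partly synchronous wave. Regulators of G1 such as cyclin D1 come first, the helicase and polymerase genes of DNA replication follow under the E2F factors, and the cyclins, kinases and motor proteins of mitosis come last. Genes of this last group are held down in resting cells by a repressor complex that binds their promoters and are switched on by MYBL2 and FOXM1 in G2. Regeneration is slower in old rodents, and the circadian clock of the liver is known to gate entry of hepatocytes into mitosis.

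Signals were summarised by RMA as log2 values, so a difference of 1 is a 2-fold change. Differences are the 48 h mean minus the 38 h mean, ± the standard error of a limma fit over all 35 arrays. "Rose" and "fell" mark an adjusted p under 0.05 over 18194 genes. Albumin, the main secreted protein of hepatocytes, lay between 14.84 and 14.94 in all 6 arrays. One array stood apart: old PH 38 h replicate 3 correlated across genes at r = 0.945 and 0.947 with the other arrays of its group, which correlated at 0.993 with each other. Its highest correlation with any array was 0.993, with replicate 1 of the old PH 24 h group, which itself correlated at 0.955 to 0.974 with the other arrays of that group. Its label was kept as given, and whether this array belongs to 38 h was not tested. The median r within groups was 0.993, and the 48 h arrays correlated at 0.993 to 0.996. The leading counts are therefore given with and without 38 h replicate 3. The adipose genes Cidec and Plin4, which code for proteins that coat lipid droplets, stood at 12.25 and 12.11 in that array, against 7.46 to 7.55 and 7.59 to 8.04 in the other 38 h arrays. Adipoq, the defining hormone of fat cells, did not share this pattern, at 5.26 in replicate 3 and 5.61 and 5.02 in the others.

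From 38 to 48 h 853 genes rose (4.69% of those tested) and 637 fell (3.5%). Without 38 h replicate 3 these became 528 (2.9%) and 305 (1.68%), of which 397 and 218 were shared with the first counts. In 596 of the 853 risers that array was the lowest of the 6, and in 289 of the 637 fallers the highest. The 3 arrays of one time lay wholly above those of the other in 1917 genes at 48 h (10.5%) and wholly below in 3379 (18.6%). The median difference over all genes was -0.05. The risers made up 57.2% of the calls, 73.4% after each array was centred on its median and 44.9% after a repeated quantile normalization, so the balance of rises and falls is not settled by these data. The calls rest on a spread pooled over all 35 arrays: with the 6 arrays fitted alone, 0 genes passed (3201 at an unadjusted p under 0.05), and with the same fit without 38 h replicate 3, 693 did. Leaving out 48 h replicate 1, 2 or 3 left 514, 578 or 843 calls.

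Genes of mitosis rose. Of 94 measured members of 6 lists (cyclins and kinases, chromosome structure, kinetochore, spindle, anaphase and cytokinesis), 78 rose and 0 fell. Over all tested genes 4.69% rose and 3.5% fell. The median difference of the 94 was 1.28, and 76 had all 48 h arrays above all 38 h arrays (10.5% of all genes did). Without 38 h replicate 3, 62 rose and 0 fell (2.9% and 1.68% of all tested genes did), and the median was 1.01. The lists were chosen with earlier results of these data known. In a bulk sample, more dividing cells and more RNA per dividing cell cannot be told apart. The members differed most among the 38 h arrays: 83 of the 94 were highest in replicate 1 and 80 lowest in replicate 3, and the median SD was 0.68 at 38 h against 0.18 at 48 h. Set against replicate 1, 2 or 3 alone, the 48 h mean of these genes was higher by a median of 0.57, 1.46 or 1.92.

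The largest rise was that of Birc5, which codes for survivin, a subunit of the complex that corrects chromosome attachment and directs cytokinesis. It stood at 10.23, 7.85 and 5.50 at 38 h and at 11.16, 11.20 and 11.20 at 48 h, against 5.48 to 5.91 in the old sham arrays of both times. The 48 h arrays lay close together above each 38 h array, while the lowest 38 h array was within the range of the sham arrays. The rise was 3.33 ± 0.65 (adjusted p = 0.00346), and 2.15 without replicate 3 (adjusted p = 0.017). Nuf2, part of the kinetochore complex that grips microtubules, read 7.38, 6.03 and 4.82 at 38 h and 9.19, 9.31 and 9.34 at 48 h. Its rise of 3.21 ± 0.39 (9.22-fold, adjusted p = 4.15e-05) was 2.58 without replicate 3. Ube2c, the ubiquitin-conjugating enzyme that serves the anaphase-promoting complex, rose by 3.15 ± 0.57, from 10.76, 8.27 and 6.62 to 11.88, 11.80 and 11.41. Mki67, the widely used marker of cycling cells that coats mitotic chromosomes, rose by 3.08 ± 0.60, from 9.997, 8.04 and 6.14 to 10.90, 11.30 and 11.21. Ect2, the exchange factor that starts the cleavage furrow, rose by 3.03 ± 0.43, from 8.14, 6.18 and 5.00 to 9.49, 9.66 and 9.26. Depdc1a rose by 2.96 ± 0.34, from 5.15, 4.44 and 3.84 to 7.24, 7.71 and 7.35. In each of these the 38 h arrays stood in the order replicate 1, 2, 3 and the 48 h arrays lay close together above them. The next in size were Ccnb2 (2.95), Cdkn3 (2.80), D17H6S56E-5 (2.78) and Cdca3 (2.75). Dimmer probe sets of Cdca3 (-0.17 ± 0.12 and 0.04 ± 0.11) did not pass, while that of D17H6S56E-5 (3.10 ± 0.64) passed over all probe sets.

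**Figure D1:**
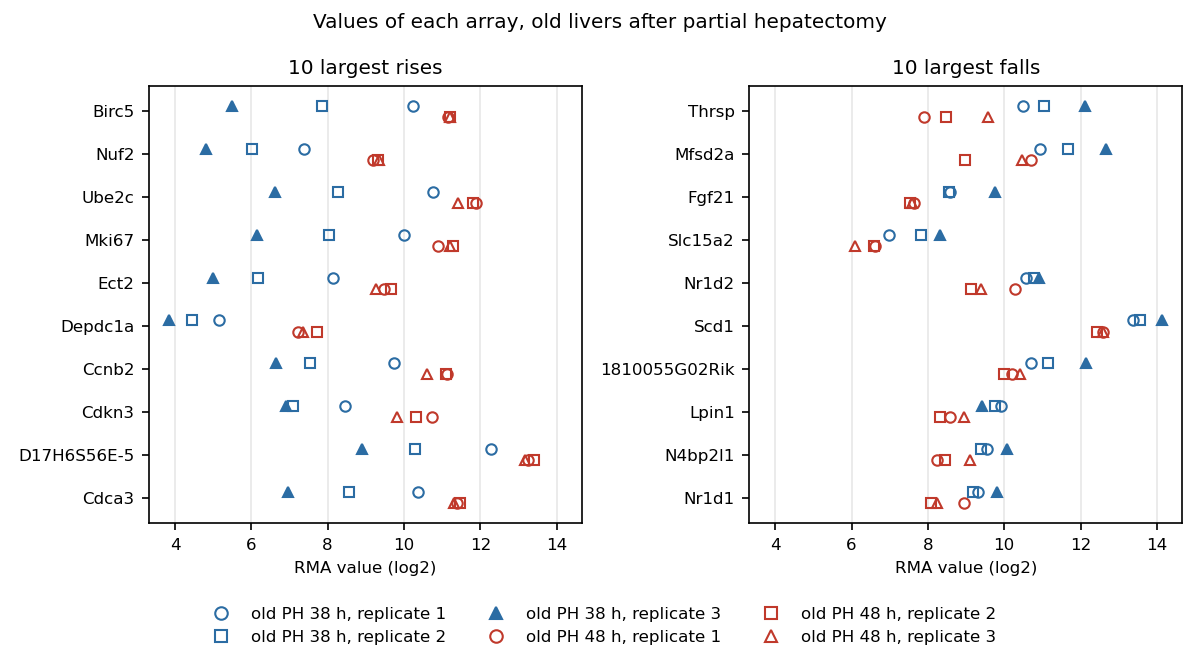
RMA values (log2, x axis) of the 10 genes with the largest rises (left) and the 10 with the largest falls (right) among genes that passed with no overlap between the times; blue marks are the 3 old PH 38 h arrays, filled for replicate 3, and red marks the 3 old PH 48 h arrays. The 38 h marks of Birc5 run from 5.50 to 10.23 while its 48 h marks lie between 11.16 and 11.20, and replicate 3 is the lowest 38 h array in all 10 rises.

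The windows around the transcription starts of the 6 genes with the largest rises are shown because promoters of mitotic genes are known for 2 elements, the CCAAT box bound by NF-Y and the cell cycle gene homology region TTTGAA bound by the repressor and its activating partners. Each window runs from 250 bases before the start to 50 after it, 5′ to 3′ on the gene's strand, from RefSeq on build GRCm38.p6, and CCAAT and TTTGAA on either strand are in capitals. The windows are at chr11:117848987-117849286 (Birc5, plus strand), chr1:169531415-169531714 (Nuf2, minus strand), chr2:164769679-164769978 (Ube2c, plus strand), chr7:135716330-135716629 (Mki67, minus strand), chr3:27153829-27154128 (Ect2, minus strand, the first of 2 listed starts) and chr3:159495183-159495482 (Depdc1a, plus strand).
Birc5: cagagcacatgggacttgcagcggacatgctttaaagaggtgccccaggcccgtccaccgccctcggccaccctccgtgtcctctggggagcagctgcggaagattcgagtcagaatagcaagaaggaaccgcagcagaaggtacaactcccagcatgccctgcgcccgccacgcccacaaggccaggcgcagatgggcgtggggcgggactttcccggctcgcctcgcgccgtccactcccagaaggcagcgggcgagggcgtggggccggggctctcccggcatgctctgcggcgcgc
Nuf2: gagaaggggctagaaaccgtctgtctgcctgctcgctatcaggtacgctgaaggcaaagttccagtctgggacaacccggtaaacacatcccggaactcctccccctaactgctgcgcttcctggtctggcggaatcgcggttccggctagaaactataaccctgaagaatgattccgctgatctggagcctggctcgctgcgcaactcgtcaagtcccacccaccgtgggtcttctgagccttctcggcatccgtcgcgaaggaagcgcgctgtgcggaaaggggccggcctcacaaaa
Ube2c: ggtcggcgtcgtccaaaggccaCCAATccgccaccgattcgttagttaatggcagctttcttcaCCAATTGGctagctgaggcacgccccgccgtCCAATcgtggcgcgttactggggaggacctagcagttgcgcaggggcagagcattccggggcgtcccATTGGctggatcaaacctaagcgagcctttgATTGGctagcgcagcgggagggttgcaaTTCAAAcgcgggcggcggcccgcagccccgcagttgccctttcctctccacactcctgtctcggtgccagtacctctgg
Mki67: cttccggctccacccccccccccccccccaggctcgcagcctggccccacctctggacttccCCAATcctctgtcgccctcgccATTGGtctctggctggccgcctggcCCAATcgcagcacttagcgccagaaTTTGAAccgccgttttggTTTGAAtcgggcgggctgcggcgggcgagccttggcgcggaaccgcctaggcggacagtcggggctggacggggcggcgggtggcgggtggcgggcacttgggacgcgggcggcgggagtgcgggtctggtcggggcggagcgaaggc
Ect2: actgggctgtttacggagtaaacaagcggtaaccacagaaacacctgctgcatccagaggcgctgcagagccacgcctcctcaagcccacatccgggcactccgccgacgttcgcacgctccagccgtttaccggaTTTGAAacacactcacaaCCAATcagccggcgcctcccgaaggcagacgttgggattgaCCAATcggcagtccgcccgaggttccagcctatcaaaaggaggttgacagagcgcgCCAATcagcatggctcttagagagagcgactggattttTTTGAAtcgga
Depdc1a: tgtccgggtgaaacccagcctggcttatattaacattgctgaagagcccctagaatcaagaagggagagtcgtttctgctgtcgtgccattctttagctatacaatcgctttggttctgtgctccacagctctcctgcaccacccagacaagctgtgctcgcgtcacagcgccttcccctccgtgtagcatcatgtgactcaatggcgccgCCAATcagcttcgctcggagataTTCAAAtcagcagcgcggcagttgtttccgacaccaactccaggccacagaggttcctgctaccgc
The windows of Ube2c, Mki67, Ect2 and Depdc1a hold both elements. Ube2c has 6 CCAAT matches and 1 TTTGAA, Mki67 and Ect2 have 3 and 2 each, and Depdc1a has 1 of each. Birc5 and Nuf2 hold neither in this window, though Birc5 has 1 match to the related TTTAAA. Of the 78 mitotic genes that rose, 66 have a window in the table: 69.7% hold CCAAT, 65.2% TTTGAA and 54.5% both. Among all 32851 windows the shares were 37.4%, 17.9% and 7.0%, among the 14453 tested genes with a window 42.0%, 15.7% and 6.2%, among 706 risers of any kind 51.3%, 25.8% and 15.7%, and among 500 fallers 42.6%, 17.6% and 5.6%. TTTGAA and TTTAAA differ at 1 base and were counted apart; TTTAAA was held by 16.7% of the mitotic risers and 12.1% of tested genes. CCAAT was also common in sets described below, held by 59.1% of 44 replication genes and 75.0% of 16 clock genes with a window. TTTGAA was held by 15.9% and 0.0% of these. A gene counts as holding an element if any of its listed starts does, and a match describes letters and not binding.

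Among the cyclins, kinases and phosphatases that drive entry into mitosis all 18 measured members rose (4.69% of tested genes did), by 0.75 to 2.95, with a median of 1.87. Without 38 h replicate 3, 15 rose (2.9% of all tested genes did), with a median of 1.45. Plk4, Cks1b and Ccnf then no longer passed. Cdk1, the kinase that drives cells into mitosis, rose by 2.54 ± 0.45 (5.83-fold, adjusted p = 0.00139) from 11.33, 9.47 and 8.19 to 12.21, 12.33 and 12.09. The old untreated livers were at 7.77, 8.43 and 7.92, and replicate 3 at 38 h lay within that range. The cyclin Ccnb2 rose by 2.95 ± 0.45 and Ccna2, which acts in S phase and G2, by 1.69 ± 0.36. The phosphatase Cdc25b, which removes the inhibitory phosphates of CDK1, rose by 1.55 ± 0.18 (adjusted p = 1.92e-05), from 7.29, 6.84 and 6.41 to 8.44, 8.53 and 8.23. Its opponent Wee1, the kinase that adds such a phosphate, read 9.71, 9.69 and 9.57 at 38 h and 9.98, 9.91 and 9.78 at 48 h and did not pass (0.24 ± 0.36). The Aurora kinases Aurka (2.43 ± 0.37) and Aurkb (2.03 ± 0.37), the Polo kinase Plk1 (1.99 ± 0.38), and the checkpoint kinases Bub1 (2.02 ± 0.29) and Ttk (1.87 ± 0.27) rose together with Nek2 (1.87 ± 0.23), which splits the centrosomes.

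Genes of the mitotic machinery rose as well. The counts in these lists stand against 4.69% of all tested genes that rose, or 2.9% without 38 h replicate 3. In the condensin, cohesin and topoisomerase list 13 of 16 rose (9 without replicate 3): Top2a, which untangles sister DNA, rose by 2.33 ± 0.51, the condensin subunits Smc2 and Smc4 by 2.18 ± 0.47 and 2.00 ± 0.35, and Esco2, which acetylates cohesin during replication, by 2.70 ± 0.53. The rise of Rad21, the cohesin cleaved at anaphase, was smaller but nearly even against all 38 h arrays, from 10.59, 10.42 and 10.36 to 11.38, 11.79 and 11.59 (1.13 ± 0.20). Ncapd3, Ncapg2 and Smc1a did not pass on their brightest probe sets, though both dimmer ones of Smc1a, a cohesin subunit, passed over all probe sets (0.93 ± 0.21 and 0.83 ± 0.17, adjusted p = 0.00848 and 0.00436). Of 17 kinetochore and checkpoint genes 13 rose (10 without replicate 3), among them Cenpa (2.46 ± 0.41), the histone variant that marks centromeres, Cenpf (2.31 ± 0.36), Cdca8 (2.25 ± 0.42), Zwilch (2.23 ± 0.37) and Mad2l1 (1.54 ± 0.29). Cenpk was lower in all 48 h arrays but did not pass (-0.27 ± 0.09), and a dimmer probe set had the opposite sign (0.71 ± 0.30) and did not pass either. Of 21 spindle genes and kinesins 17 rose (13 without replicate 3), led by Nusap1 (2.58 ± 0.36), Kif20a (2.55 ± 0.42), Ckap2 (2.38 ± 0.35), Hmmr (2.22 ± 0.37) and Prc1 (1.90 ± 0.32), which bundles midzone microtubules. Kif15 was lower in all 48 h arrays and did not pass (-0.29 ± 0.10). The probe sets of Tpx2, which targets Aurora A to the spindle, disagreed. The brightest gave -0.25 ± 0.14 and the next in brightness -0.24 ± 0.11, and neither passed. The dimmest gave 2.20 ± 0.22 and 1.74 ± 0.26 and passed over all probe sets (adjusted p = 5.07e-06 and 0.000321).

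In the anaphase list 7 of 11 rose (63.6%, against 4.69% of all tested genes). Without replicate 3, 5 rose (2.9% of all tested genes did). Cdc20, the activator of the anaphase-promoting complex, rose by 2.69 ± 0.40 from 10.42, 8.49 and 8.03 to 11.81, 11.88 and 11.31, with no overlap. Fzr1, the activator that takes over after anaphase, did not pass (0.23 ± 0.21). Of 11 cytokinesis genes 10 rose with and without replicate 3 (90.9%, against 4.69% and 2.9% of all tested genes), with medians of 2.16 and 1.87. Cep55, which recruits the abscission machinery, rose by 2.69 ± 0.37 from 7.68, 6.33 and 5.62 to 9.37, 9.40 and 8.93, and the contractile ring organiser Anln by 2.57 ± 0.38. Set against 38 h replicate 1 alone, the 48 h mean of the cytokinesis list was higher by a median of 1.14, and that of the cyclin and kinase list by 0.79.

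Of 7 measured transcription factors of the mitotic programme 3 rose (42.9%, against 4.69% of all tested genes). Mybl1 (1.80 ± 0.34), Lin54 (1.01 ± 0.23) and Lin9 (0.66 ± 0.16) rose, the last of these being subunits of the complex that switches these genes, and Mybl1 alone passed without replicate 3. Foxm1 read 8.91, 8.69 and 8.38 at 38 h and 9.03, 9.01 and 8.93 at 48 h, a difference of 0.33 ± 0.13 that did not pass. Mybl2 was low on its probe set, at 5.70 to 5.82 and then 5.38 to 5.54, and did not pass (-0.28 ± 0.09). The 48 h arrays of Foxm1 lay above and those of Mybl2 below all 38 h arrays. A dimmer probe set of Foxm1 gave 1.24 ± 0.27 and passed over all probe sets (adjusted p = 0.00677). Others gave 0.37 ± 0.14 and -0.09 ± 0.08 and did not pass, so the call for this gene depends on the probe set.

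**Figure D2:**
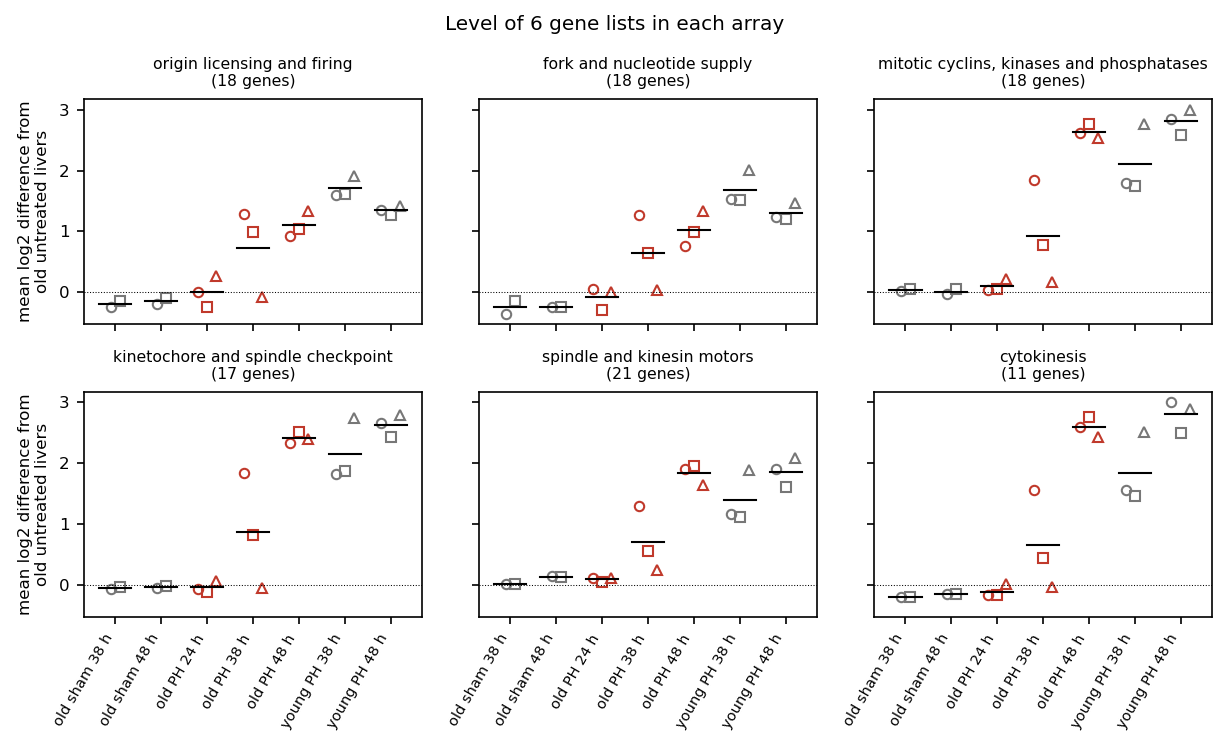
Mean log2 difference from the mean of the 3 old untreated livers (y axis) over the members of 6 gene lists, 1 mark per array, with the group mean as a bar; old PH groups are red, old sham and young PH groups grey. In the cyclin and kinase list the old PH arrays lie at 1.85, 0.77 and 0.17 at 38 h and at 2.61, 2.76 and 2.54 at 48 h, while the origin licensing list is at 1.28, 0.99 and -0.08 and then 0.92, 1.04 and 1.34.

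Genes of DNA replication were tested over the same interval. Of 54 measured members of 4 lists (origin licensing, fork and nucleotide supply, chromatin assembly, linked repair) 5 rose and 0 fell (4.69% and 3.5% of all tested genes did). Their median difference was 0.27. An unadjusted p under 0.05 was reached by 17 of the 54, 16 of them higher, and by 4872 of all 18194 tested genes. Without 38 h replicate 3, 2 rose and 2 fell (2.9% and 1.68% of all tested genes did), and the median was 0.01. The 38 h arrays disagreed in sign: the 48 h mean was below replicate 1 by a median difference of -0.18, and above replicates 2 and 3 by 0.24 and 0.91. Mcm6, a subunit of the replicative helicase, read 11.06, 10.36 and 7.75 at 38 h and 9.80, 10.04 and 10.77 at 48 h, so the groups overlapped (0.48 ± 0.52). Pcna, the sliding clamp of DNA polymerase, read 12.72, 11.97 and 11.50 and then 11.98, 12.09 and 12.51 (0.13 ± 0.23). Rrm2, a subunit of ribonucleotide reductase, read 11.30, 9.93 and 10.37 and then 9.88, 10.64 and 11.24 (0.06 ± 0.53). None of these 3 passed, and in each 38 h replicate 1 lay above all 48 h arrays. Those that rose were Dbf4 (1.73 ± 0.31), the activating subunit of the kinase that fires origins, H2az1 (1.28 ± 0.28), a histone variant, Rad51ap1 (1.15 ± 0.36), Gmnn (1.06 ± 0.31), the inhibitor that prevents a second round of licensing, and Gins2 (0.80 ± 0.22). Dbf4 read 9.18, 7.94 and 8.45 at 38 h and 10.27, 10.46 and 10.03 at 48 h, and together with H2az1 it passed without replicate 3, when Mcm10 (-1.27) and Tyms (-0.65), which makes thymidylate, passed as lower at 48 h. In the windows of 44 of these genes the E2F element TTTNGCGC, searched on both strands, was held by 27.3%, against 2.3% of tested genes and 6.1% of the mitotic risers, and TTTGAA by 15.9%.

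Of 21 measured regulators of G1 and S entry 3 rose (14.3%, against 4.69% of all tested genes) and 1 fell (4.76%, against 3.5%). Rbl1, the pocket protein p107 (1.91 ± 0.40), Rbl2, its relative p130 (0.84 ± 0.23), and Cdkn2c, an inhibitor of the cyclin D kinases (1.83 ± 0.38), rose, and Rbl2 did not pass without 38 h replicate 3. Cdkn2c read 10.68, 9.10 and 8.35 at 38 h and 10.99, 11.35 and 11.28 at 48 h. Ccne1, the cyclin that starts S phase, fell by 0.75 on the log2 scale (SE 0.20, adjusted p = 0.0243), from 9.49, 9.45 and 9.67 to 8.71, 8.80 and 8.84, with no overlap; without replicate 3 the difference was -0.68 (adjusted p = 0.0766). Ccne2 read 6.75, 6.59 and 4.89 and then 5.68, 6.14 and 6.67, with overlap. Ccnd1, the mitogen-responsive cyclin D1, read 11.60, 11.16 and 8.80 and then 12.11, 11.70 and 11.57. Its difference of 1.27 ± 0.48 did not pass and was 0.41 without replicate 3, while a dimmer probe set gave 1.65 ± 0.47 and passed over all probe sets (adjusted p = 0.032). Another dimmer probe set of Ccnd1 gave 1.63 ± 0.56 and did not pass (adjusted p = 0.0687). Cdkn1a, which codes for the inhibitor p21, read 10.97, 10.04 and 12.90 at 38 h and 11.65, 11.67 and 11.48 at 48 h, with replicate 3 above and the other 38 h arrays below the 48 h arrays. It did not pass with all arrays (0.30 ± 0.41) and passed without replicate 3 (1.09, adjusted p = 0.0271). Of 18 measured p53 targets 3 rose (16.7%, against 4.69% of all tested genes), namely Ccng1 (0.77 ± 0.17), Eda2r (0.66 ± 0.17) and Mdm2 (0.52 ± 0.15).

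**Figure D3:**
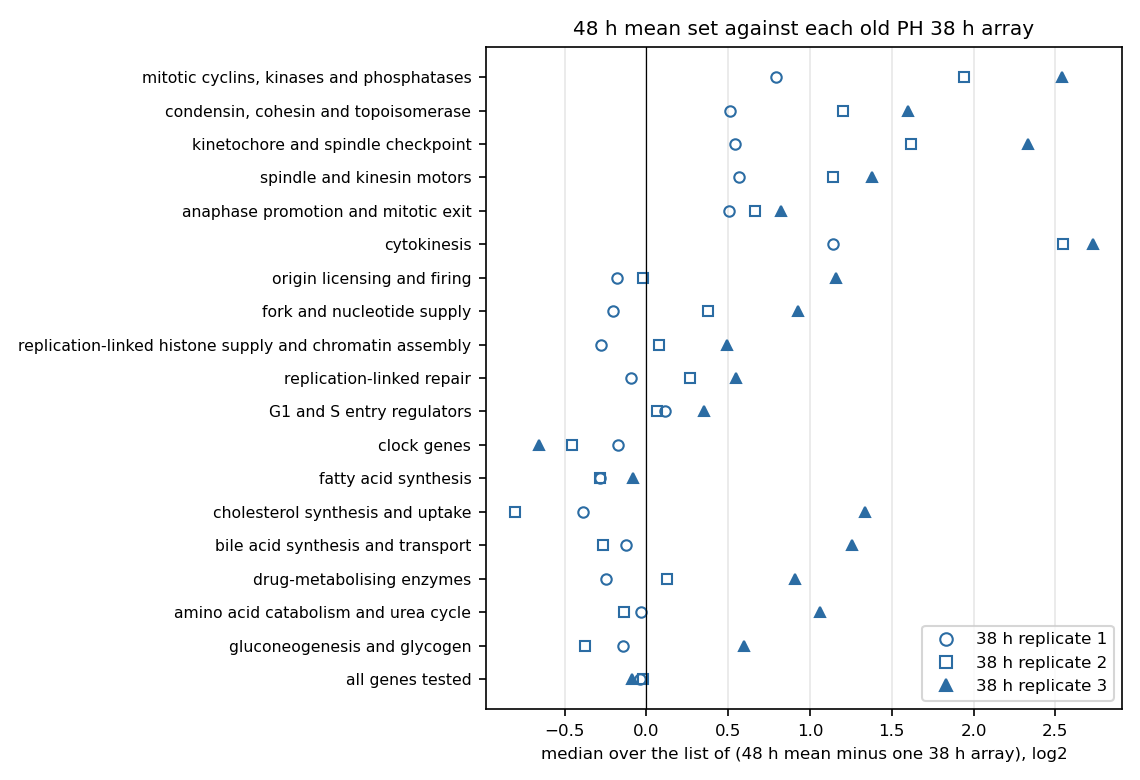
Median over each gene list of the 48 h mean minus one 38 h array (x axis, log2), 1 mark per 38 h array, filled for replicate 3. All 3 marks are above 0 for the 6 mitotic lists, from 0.51 to 2.73, while for bile acid genes the marks are at -0.13, -0.27 and 1.25.

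Outside the cell cycle the strongest single change by adjusted p, named after its value was seen, was Serpinb8, an intracellular inhibitor of serine proteases. It read 6.68, 6.38 and 6.32 at 38 h and 8.47, 8.75 and 8.18 at 48 h, and 6.36 to 6.54 in the old sham arrays. The rise of 2.01 ± 0.18 (4.02-fold, adjusted p = 1.11e-06) was 1.94 without replicate 3.

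Clock genes changed in both directions. Of 18 measured, Arntl and Clock, the 2 activators that form the core heterodimer, rose, by 1.27 ± 0.36 and 0.95 ± 0.20, and Nr1d2 (-1.15 ± 0.32), Nr1d1 (-1.01 ± 0.27), Ciart (-0.66 ± 0.21) and Per2 (-0.50 ± 0.15), which act as repressors, fell. These are 11.1% and 22.2% of the list, against 4.69% and 3.5% of all tested genes. Arntl read 8.56, 8.14 and 7.72 at 38 h and 9.25, 9.55 and 9.42 at 48 h. Nr1d1, the repressor REV-ERB alpha, read 9.31, 9.19 and 9.81 and then 8.95, 8.09 and 8.23. Dbp, an output factor driven directly by the activators, had the largest difference of the list but did not pass, at 8.91, 9.93 and 9.10 and then 7.98, 6.66 and 7.15 (-2.05 ± 0.70, adjusted p = 0.068). In all 3 genes the arrays of the 2 times did not overlap, as in 10.5% (higher) and 18.6% (lower) of all genes. Without 38 h replicate 3 Clock alone passed (0.85, adjusted p = 0.0268). A dimmer probe set of Arntl had the opposite sign and did not pass (-0.19 ± 0.10). Nor did dimmer ones of Clock (0.38 ± 0.20, 0.22 ± 0.18 and 0.18 ± 0.14), Nr1d2 (-0.16 ± 0.20) and Per2 (-0.78 ± 0.43 and -0.15 ± 0.14). With the mean of all probe sets these 4 genes lost the call, while Nr1d1 and Ciart kept it.

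In the old sham livers the differences between the same times had the opposite sign for these genes. Dbp read 6.55 and 7.29 at 38 h and 9.06 and 11.61 at 48 h, a difference of 3.41 ± 0.85, and Arntl read 9.44 and 9.40 and then 8.85 and 7.71 (-1.14 ± 0.44). No gene passed in the sham comparison alone by limma (0 of 18194, 1834 at an unadjusted p under 0.05). The difference between the PH change and the sham change itself passed for 187 genes that were higher (1.03%) and 182 that were lower (1%). It was -5.46 ± 1.10 for Dbp (adjusted p = 0.0179), -2.17 ± 0.51 for Nr1d2 (0.0312), -2.04 ± 0.43 for Nr1d1 (0.0209) and 2.41 ± 0.57 for Arntl (0.0318), so 4 of 18 clock genes passed, 1 higher and 3 lower. Dropping 1 sham array cut the 369 calls of this comparison to between 14 and 81, and dropping old PH 38 h replicate 3 to 179. The 2 times lie 10 h apart in the day, the hour of surgery is not given in the labels, and its part in these differences was not tested. The E box CACGTG was held by 31.2% of the 16 clock genes with a promoter window and 10.2% of tested genes, and the D box TTATGNAA by 12.5% and 2.9%.

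**Figure D4:**
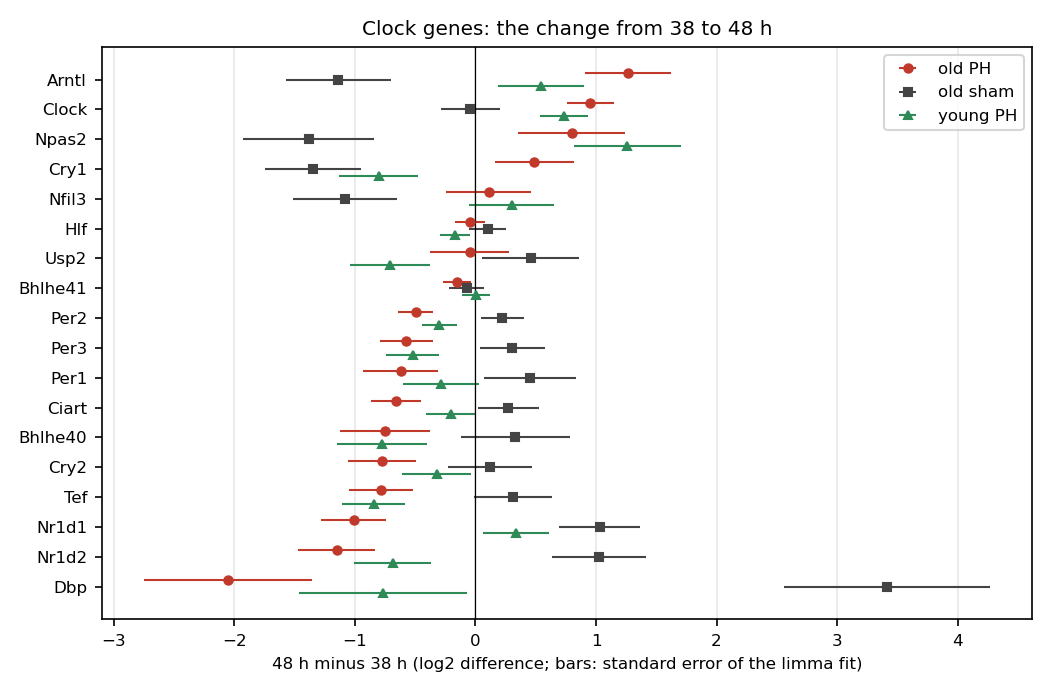
Difference between 48 h and 38 h (log2, x axis) of 18 clock genes in old livers after PH (red circles, 3 arrays per time), old sham livers (grey squares, 2 per time) and young livers after PH (green triangles, 3 per time), with the standard error of the limma fit as bars. Dbp is at -2.05 in old PH, 3.41 in old sham and -0.77 in young PH livers, and Arntl at 1.27, -1.14 and 0.54.

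In sham livers the median difference of the 94 mitotic genes was 0.03, and 30 of the 94 passed as higher in the PH change than in the sham change, against 1.03% of all genes. The largest of these were Ube2c (3.40 ± 0.90, adjusted p = 0.047), Ect2 (3.32 ± 0.68, 0.0197), Nuf2 (3.20 ± 0.62, 0.0158), Depdc1a (2.94 ± 0.54, 0.0118) and Ccnb2 (2.90 ± 0.72, 0.0408). None of the 54 replication genes passed in this comparison, where their median was 0.26.

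The 10 largest falls that passed without overlap included genes of lipid handling, transport and the clock. Thrsp, a nuclear protein that promotes fatty acid synthesis, fell by 2.56 on the log2 scale (SE 0.71, 5.92-fold, adjusted p = 0.0284), from 10.49, 11.04 and 12.11 at 38 h to 7.91, 8.46 and 9.57 at 48 h. The old untreated livers were at 12.50, 13.62 and 13.67. Scd1, the desaturase that makes oleate, fell from 13.36, 13.55 and 14.14 to 12.60, 12.43 and 12.58 (-1.15 ± 0.36), and Fgf21, a fasting hormone of the liver, from 8.58, 8.54 and 9.77 to 7.63, 7.53 and 7.59 (-1.38 ± 0.43). The arrays of these 3 genes did not overlap between the times. Mfsd2a (-1.72 ± 0.54), a transporter of lysophospholipids, Slc15a2 (-1.28 ± 0.35), a peptide transporter, and Lpin1 (-1.08 ± 0.32), a phosphatidate phosphatase, fell as well, with N4bp2l1 (-1.08) and 1810055G02Rik (-1.14). Dimmer probe sets of Scd1 (-0.347 ± 0.695) and N4bp2l1 (0.327 ± 0.493) did not pass. In the fatty acid synthesis list 5 of 18 fell (Thrsp, Scd1, Dgat2, Me1 and Pnpla3, against 3.5% of tested genes) and 0 rose, with a median of -0.19. Without 38 h replicate 3 none of these 5 passed, Thrsp at -2.12 (adjusted p = 0.105) and Scd1 at -0.92 (0.162), and none of the 10 largest falls did. Over the same times the fatty acid synthesis list had a median of -0.32 in old sham livers and 0.25 in young livers after PH. The median of the PH change minus the sham change was 0.13, and 0 of its genes passed in that comparison.

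The oxidation of fatty acids gave 1 rise and 2 falls among 18 genes (5.56% and 11.1%, against 4.69% and 3.5%). Acot1, a thioesterase that splits acyl-CoA, rose by 1.36 ± 0.34 from 9.79, 8.76 and 8.83 to 10.79, 10.35 and 10.33, and did not pass without 38 h replicate 3 (1.21, adjusted p = 0.065). Ppara, the nuclear receptor of fatty acid oxidation, fell from 10.71, 11.00 and 11.39 to 9.91, 10.03 and 10.22 (-0.97 ± 0.29), and was -0.79 without replicate 3 (adjusted p = 0.14). In sham livers the difference of Acot1 was -1.27 ± 0.42, and its PH change exceeded the sham change by 2.63 ± 0.54 (adjusted p = 0.0197). Of 19 cholesterol genes 1 fell (5.26%, against 3.5% of all tested genes), Hsd17b7, an enzyme of the late pathway. It fell with and without replicate 3 (-0.87 ± 0.27 and -1.01), from 11.00, 11.43 and 10.78 to 9.85, 10.16 and 10.59. Its dimmer probe sets gave -0.48 ± 0.12, which passed over all probe sets, and 0.10 ± 0.27 and -0.50 ± 0.25, which did not.

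Among genes of differentiated hepatocyte function the share called was near that of all tested genes. One rise in each list was 4.76% of the bile acid, 4.55% of the drug-metabolising, 4.76% of the amino acid and 7.14% of the plasma protein genes, against 4.69%. Of 21 bile acid genes Baat, which conjugates bile acids, rose (0.63 ± 0.13), from 9.96, 10.48 and 9.97 to 10.77, 10.73 and 10.81. Cyp7a1, the rate-limiting enzyme of bile acid synthesis, averaged 8.48 ± 0.64 (SD, n = 3) at 38 h and 9.23 ± 0.46 (SD, n = 3) at 48 h, with overlap (0.75 ± 0.65). Cyp3a11 (0.32 ± 0.09) was 1 of 22 drug-metabolising enzymes that rose, Otc (0.68 ± 0.17), of the urea cycle, 1 of 21 amino acid genes, and Serpinc1 (0.28 ± 0.07), antithrombin, 1 of 14 plasma protein genes. None of these last 3 passed without replicate 3. In the bile acid list the mean level relative to old untreated livers was -0.70, -0.60 and -2.06 at 38 h and -0.94, -0.93 and -0.48 at 48 h, and it was -1.91 in old PH 24 h replicate 1. Drug-metabolising enzymes were at -0.22, -0.44 and -1.55 and then -0.64, -0.57 and -0.24, so in both lists replicate 3 lay below every other array of the comparison. Of the sterol exporters Abcg5 and Abcg8, each passed as lower without replicate 3 (-1.03 and -0.85) and neither with it.

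The liver transcription factors Hnf4a (12.82 to 13.04 at 38 h, 12.86 to 12.97 at 48 h, -0.01 ± 0.08) and Cebpb (-0.15 ± 0.12) did not pass. Dimmer probe sets of Hnf4a gave 0.39 ± 0.12 and 0.62 ± 0.18 and passed over all probe sets (adjusted p = 0.0488 and 0.0326), so its probe sets disagree. Cebpa, which restrains hepatocyte growth, read 12.19, 12.65 and 11.79 and then 11.97, 11.90 and 11.68. It did not pass with all arrays (-0.36 ± 0.17) and passed without replicate 3 (-0.57, adjusted p = 0.0465). Igfbp1, an early gene of liver regeneration, read 12.11, 12.30 and 13.87 and then 12.13, 12.43 and 12.94 (-0.26 ± 0.64). Per1 was at 9.69, 9.43 and 10.78 and then 9.28, 9.33 and 9.43 (-0.62 ± 0.31). In both, 38 h replicate 3 was the highest of the 6 arrays.

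Stress and immune genes gave scattered calls. Of 16 antioxidant genes 3 rose (18.8%, against 4.69% of all tested genes). These were Nfe2l2 (1.23 ± 0.30), which codes for the master regulator NRF2, its target Nqo1 (1.00 ± 0.30) and Txnrd1 (0.43 ± 0.12), a thioredoxin reductase. The last 2 also passed without replicate 3. A dim probe set of Nfe2l2 gave the opposite sign and did not pass (-1.85 ± 1.07). Nqo1 read 7.46, 7.08 and 7.85 at 38 h and 8.71, 8.01 and 8.66 at 48 h. In the unfolded protein response Atf4 (-0.45 ± 0.12) and its target Chac1 (-0.80 ± 0.21) fell, 2 of 18 (11.1%, against 3.5% of all tested genes). Neither passed without replicate 3. Usp18 (1.43 ± 0.38) and Irgm1 (0.81 ± 0.23) were 2 of 24 interferon-induced genes that rose (8.33%, against 4.69% of all tested genes). Usp18 read 8.05, 8.37 and 7.95 and then 9.18, 8.95 and 10.55. The list's median was 0.49 and 10 of its 24 genes had all 48 h arrays higher (10.5% of all genes did). Neither Usp18 nor Irgm1 passed without 38 h replicate 3, and 48 h replicate 3 stood at a mean level of -0.02 against -0.50 and -0.62 in the other 48 h arrays. Of 19 early response genes Ier5 rose (0.93 ± 0.22), of 12 heat shock genes Hspa4l (0.73 ± 0.19) and of 24 ribosome biogenesis genes Nop58 (0.93 ± 0.26), shares of 5.26%, 8.33% and 4.17% against 4.69% of all tested genes. Hspa4l did not pass without 38 h replicate 3 (0.68, adjusted p = 0.0623). No call was made in limma among 16 genes of the glucocorticoid and fasting response, 19 of the acute phase, 11 of gluconeogenesis and glycogen, 14 of the growth hormone axis or 21 hepatocyte mitogens and receptors, where 0, 0, 1, 0 and 2 had an unadjusted p under 0.05. Among all 18194 tested genes 4872 had one.

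Few markers of other cells of the liver passed. None of 12 endothelial, 12 macrophage, 10 neutrophil and monocyte, 10 bile duct, 10 adipose and mesothelial or 5 red cell markers passed in limma, and 7 of these 59 had an unadjusted p under 0.05. Over all tested genes 4.69% rose and 3.5% fell, and 4872 of 18194 had an unadjusted p under 0.05. With shares this low, 0 calls in lists of this length say little about these cells. Lum, a matrix proteoglycan, rose (1.15 ± 0.33), 1 of 17 matrix and stellate markers (5.88%, against 4.69% of all tested genes). Lum read 9.64, 9.86 and 8.58 and then 10.75, 10.14 and 10.63. The lymphocyte genes Cd3e (-0.27 ± 0.08), a subunit of the T cell receptor complex, and Gzma (-0.38 ± 0.10), a granzyme, were 2 of 13 that fell (15.4%, against 3.5% of all tested genes). Lum, Cd3e and Gzma did not pass without 38 h replicate 3 (adjusted p = 0.165, 0.0701 and 0.0847). Of 12 periportal markers Hsd17b13 (0.89 ± 0.21) and Cdh1 (1.63 ± 0.44), E-cadherin, rose (16.7%, against 4.69% of all tested genes). Of 14 pericentral markers 0 rose in limma (2 at an unadjusted p under 0.05). Cdh1 read 7.28, 7.06 and 9.54 at 38 h and 9.78, 9.86 and 9.12 at 48 h, so 38 h replicate 3 alone overlapped with the 48 h arrays, and without it the rise was 2.42 (adjusted p = 0.000474). The medians of the 8 marker lists of other cell types lay between -0.34 and 0.30, against 0.81 to 2.16 in the mitotic lists. The mean level of the adipose and mesothelial list was 0.49, 0.38 and 1.46 at 38 h and 0.25, 0.16 and 0.28 at 48 h. The part of these cells in the other changes was not tested.

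Young livers were compared over the same interval. Between 38 h and 48 h after PH 190 genes rose in young livers (1.04%) and 40 fell (0.22%). Which age gave more calls depended on the fit: 1490 in old and 230 in young livers with the pooled spread, 285 and 487 with a variance weight per group, and 0 and 35 with each age's 6 arrays alone. Leaving out young 38 h replicate 1 or 2 left 54 or 44 calls in all and leaving out young 48 h replicate 1 left 28. Of the 94 mitotic genes 8 rose and 0 fell in young livers, with a median of 0.39, and 85 differences were above 0. The 8 were Ccnb2 (2.07), Depdc1a (1.95), Cdc20 (1.92), Arhgef39 (1.42), Nek2 (1.40), Diaph3 (1.07), Pttg1 (1.03) and Cdc25c (0.84), and each also rose in old livers. Cdk1 in young livers was at 11.27, 11.36 and 12.43 at 38 h and 12.14, 12.11 and 12.57 at 48 h, so the lowest young 38 h array lay near the highest old 38 h array, at 11.33. Serpinb8 and Cdkn3, which rose in old livers by 2.01 and 2.80, rose in young livers by 1.86 and 2.77. The replication lists had 0 rises and 2 falls in young livers, Cdc6 (-1.61) and Chaf1b (-0.79), with a median of -0.35 and 49 of 54 differences below 0. Ccne1 fell in young as in old livers (-0.93 and -0.75), and Ccne2 fell in young livers (-2.39). In all, 100 genes rose at both ages, which is 11.7% of the old and 52.6% of the young risers, and 9 fell at both (1.4% and 22.5%).

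The difference between the old and the young change passed for 0 genes in limma (1553 at an unadjusted p under 0.05, smallest adjusted p 0.108), so no gene's change from 38 to 48 h was shown to differ with age. For the mitotic lists the old change exceeded the young one by a median of 0.78 and for the replication lists by 0.66, with smallest adjusted p-values of 0.136 and 0.188. Across the 18194 genes the old and young differences, which share no array, correlated at Pearson's r = 0.423 (Spearman's rho 0.385), and at 0.511 (0.475) without old 38 h replicate 3. Genes are not independent replicates, and these values describe the arrays.

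**Figure D5:**
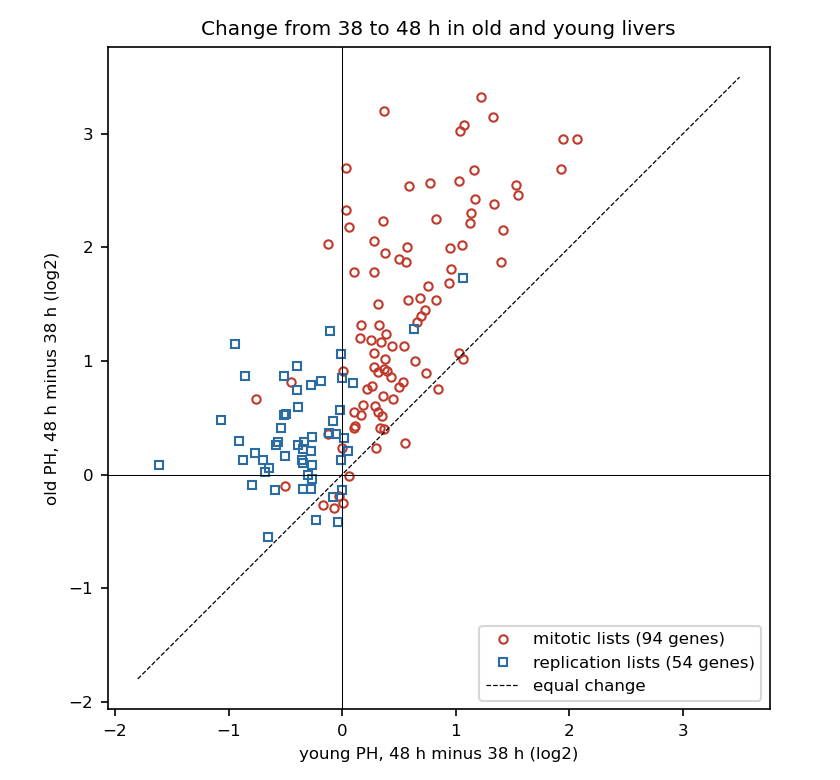
Difference between 48 h and 38 h after PH (log2) in old livers (y axis) against young livers (x axis) for the 94 genes of the mitotic lists (red circles) and the 54 of the replication lists (blue squares), with 3 arrays per age and time; the dashed line marks equal change. The mitotic genes have medians of 1.28 (old) and 0.39 (young), and the replication genes of 0.27 and -0.35.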

How the data were processed

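RNA from mouse liver was measured on Affymetrix mouse expression arrays. The deposited values are log2 signals, made by the authors with RMA per the submitters' processing notes, whose version is not given in the sources used here. RMA scales arrays towards a common distribution, so a change shared by most genes may be lost. The array medians of the deposited values still differed, at 7.268, 7.231 and 7.260 in old PH 38 h and 7.211, 7.230 and 7.215 in old PH 48 h. Of 45101 probe sets, 34958 carry 1 gene symbol, 932 several and 9211 are not listed in the platform table. Each gene was represented by its brightest probe set, judged by the mean of the 35 arrays, which gave 18194 genes.

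Group means were fitted on all 35 arrays in 14 groups with limma 3.58.1 (R 4.3.3), whose moderated test had 21 residual and 3.29 prior degrees of freedom, with Benjamini-Hochberg adjustment over all genes and a threshold of 0.05. The fit was tested on simulated data with normal noise, each gene having the same SD in every group. Such data cannot decide how the calls stand under unequal spread. Here the median SD over genes was 0.170 at old PH 38 h and 0.094 at 48 h. The contrasts were old PH 48 h against 38 h, the same for old sham and young PH, and the differences between these. Named genes were a fixed panel, the 10 largest rises and falls whose arrays did not overlap, the largest passing members of each of 43 lists, members of lists of up to 24, the 5 largest of each difference between contrasts, and genes whose probe sets disagree. The further probe sets of Foxm1, Nfe2l2, Smc1a, Cenpk, Ccnd1, Clock, Arntl, Nr1d2, Per2, Cdca3, D17H6S56E-5, Scd1, N4bp2l1 and Hsd17b7, and Serpinb8, were added after their values were seen. Members and lists were chosen with earlier results of these data known. Promoter windows came from RefSeq (GRCm38.p6). The number of arrays limits the precision. Alternatives changed the probe set rule, dim-gene filter, scaling, variance model, arrays fitted, replicate block and single arrays. Figures were drawn with matplotlib 3.10.9.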

Additional observations from a re-analysis of the deposited data

Results flagged for a closer look

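The change from 38 to 48 h differed between old PH and old sham livers, by a test of the difference itself in limma, for 369 genes. The largest differences above 0 (log2, PH change minus sham change) were 3.40 for Ube2c, 3.32 for Ect2, 3.20 for Nuf2, 2.94 for Depdc1a and 2.90 for Ccnb2. The largest below 0 were -5.46 for Dbp, -2.17 for Nr1d2, -2.04 for Nr1d1, -1.44 for Cd163, a scavenger receptor of macrophages, and -1.12 for Pnldc1, a nuclease. The sham groups hold 2 arrays at each time. Fitted on the arrays compared alone, the difference passed for 0 genes.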

How the results depend on the processing

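All comparisons rest on 3 arrays per PH group and 2 per old sham group, and most calls on a spread pooled over the series. For old PH 48 h against 38 h (1490 calls) other settings gave 3120 calls with probe sets tested singly, 285 with group weights, 607 on the 18 PH arrays, 0 on the 6 arrays alone, 693 on these without 38 h replicate 3, and 514 to 2013 with 1 array left out. For the difference from sham (369) they gave 214 after a repeated quantile normalization, 1205 with array weights, 0 on the arrays compared alone and 14 to 723 with 1 array left out. For young PH (230) they gave 376 with probe sets singly, 1671 with array weights, 487 with group weights, 35 on its own arrays, 45 on the PH arrays, 872 when both outlying old PH arrays (24 h replicate 1 and 38 h replicate 3) were dropped, and 28 to 353 with 1 array left out. For sham (0) they gave 1 with probe sets singly, 147 with array weights, 143 with group weights and 0 to 11 with 1 array left out. For old minus young (0) they gave 32 with array weights, 1 with group weights, 1 when both were dropped and 0 to 91 with 1 array left out, the 91 without old PH 38 h replicate 1. The cause of these shifts was not tested, and the array weights did not converge. Deviations from the 38 h and 48 h group means correlated at r = -0.164, -0.019 and -0.274 for equal replicate numbers. With 3 arrays per group and 38 h replicate 3 apart, these values cannot show whether the samples were paired. With the replicate block there were 1395 calls over all arrays and 0 over the 6 arrays, 263 for the difference from sham and 218 for young PH. Of 99 named genes that passed, 48 kept the call with each array of the 6 left out in turn. Of the 99, 9 lost the call with the mean of all probe sets while the sign held. These were Arntl, Clock, Nr1d2, Per2, Scd1, N4bp2l1, Hsd17b7, Atf4 and Hsd17b13. The size of a rise also depended on this setting. Among others, Cdca3 (0.88), Top2a (0.85), Cenpf (0.825) and Rbl1 (0.49) rose less than on their brightest probe sets and still passed. Aurkb (2.21), Ccna2 (1.90) and Prc1 (2.35) rose more. With the mean of all probe sets Tpx2 was at 0.86 and Nfe2l2 at -0.31, signs opposite to those of their brightest probe sets, as were Cenpk (0.15), Ncapd3 (0.16) and Hnf4a (0.35), which did not pass in either setting. The settings without outlying arrays were chosen after seeing the data.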
